A study of Mus musculus with 6 samples.

Results

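The GIMAP genes (GTPases of the immunity-associated protein family) were read across single-cell long-read libraries of mouse spleen. They were chosen by name, as Gimap1, Gimap3, Gimap4, Gimap5, Gimap6, Gimap7, Gimap8 and Gimap9, and all 8 were present in each of the 6 deposited count tables, which together hold 20279 genes. Per the labels the tissue was spleen and the animals were females at 10 weeks of age, and the series text gives the strain as C57BL/6. Each library was made in 1 of 3 ways with a droplet platform that tags the transcripts of each cell with a barcode, with 2 libraries for each way. The 3′ libraries carried the barcode at the poly(A) end of the transcript, and the standard 5′ libraries carried it where the polymerase switched template. The modified 5′ libraries followed the 5′ kit with 1 µl of 10 mM dNTP added at reverse transcription and again at cDNA amplification, with the extension lengthened from 45 min to 2 h and from 1 min to 3 min. No cDNA was fragmented, and all libraries were sequenced on a Nanopore PromethION. No group differed in genotype or treatment of the animals, so the protocols and the cell types within each library are what could be compared.

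The GIMAP proteins share a GTP-binding domain of the AIG1 type, and several of them sit on intracellular membranes. They are known from lymphocytes, where the loss of single members shortens the life of T, B or NK cells. Gimap5 is the best known member, since its loss causes lymphopenia in rats and mice, and Gimap1 is needed for mature T and B cells. Gimap6 binds an ATG8 protein of the autophagy machinery, and Gimap3 and Gimap5 have been linked to BCL-2 family proteins. Gimap8 differs from the other members in carrying several GTP-binding domains in 1 chain.

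The genes lie side by side on chromosome 6 of the GRCm38 (mm10) build, all annotated as protein coding in GENCODE. In order along the chromosome they are Gimap8 (chr6:48647234-48660875, plus strand), Gimap9 (chr6:48676129-48679114, plus), Gimap4 (chr6:48684549-48692060, plus) and Gimap6 (chr6:48701582-48708225, minus). These are followed by Gimap7 (chr6:48718621-48724636, plus), Gimap1 (chr6:48739054-48743795, plus), Gimap5 (chr6:48746197-48754210, plus) and Gimap3 (chr6:48764464-48770851, minus). The closest pair by coding sequence was Gimap3 and Gimap5, with 86.9% of aligned bases identical, followed by Gimap7 and Gimap9 with 64.5%. The other pairs without Gimap8 lay between 46.5% and 55.3%. The codons of the P-loop, the phosphate-binding loop of a GTPase, were found 1 time in each coding sequence and 3 times in that of Gimap8. The stretch around it is shown for 5 members. Gimap3 and Gimap5 were taken because they are the closest pair by coding sequence but had unlike T and B cell levels. Gimap4 was taken because it led in NK cells, and Gimap6 and Gimap1 because they led in B cells. Each line gives 60 bases of coding exon, 5′ to 3′ on the gene's own strand, with the 24 bases of the P-loop codons in capitals.
Gimap3 (exon 5, chr6:48765869-48765928, minus): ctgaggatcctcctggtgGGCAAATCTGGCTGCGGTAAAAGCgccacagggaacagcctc
Gimap5 (exon 3, chr6:48752576-48752635, plus): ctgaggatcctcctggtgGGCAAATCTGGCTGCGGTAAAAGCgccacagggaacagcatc
Gimap4 (exon 3, chr6:48690403-48690462, plus): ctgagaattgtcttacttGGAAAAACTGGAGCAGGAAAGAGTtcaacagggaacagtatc
Gimap6 (exon 3, chr6:48702732-48702791, minus): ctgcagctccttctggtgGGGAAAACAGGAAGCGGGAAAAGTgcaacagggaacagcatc
Gimap1 (exon 3, chr6:48742534-48742593, plus): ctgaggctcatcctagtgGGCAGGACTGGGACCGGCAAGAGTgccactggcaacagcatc
Gimap3 and Gimap5 had the same 24 bases and differed at 1 of the 60 bases shown, while Gimap6 and Gimap1 differed at 8 of the 24. Because of this likeness, some reads of Gimap3 and Gimap5 could be exchanged, though no reads were examined. Of the 31-base words of the Gimap3 transcript, 15.8% also occur in Gimap5, and 17.4% of those of Gimap5 occur in Gimap3. Reads of unfragmented cDNA that reach past these words also hold unshared ones. None of the words in the last 500 bases of either transcript is shared with another member. In the first 500 bases, the end that the 5′ libraries tag, 15.1% of the words of Gimap5 are shared with other members and none of those of Gimap3. A readthrough transcript, Gm28053, overlaps Gimap7, Gimap1 and Gimap5 and was not among the neighbouring genes with counts. With its words counted, 35.7% of those in the first 500 bases of Gimap5 occur elsewhere. For Gimap1, 37.0% of the words in the first 500 bases and 21.3% in the last 500 occur in other genes on either strand, but in no other member. The part of this likeness in the Gimap5 and Gimap1 values was not tested.

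The 6 libraries held between 723341 and 2627253 counts, with 861 to 4045 cells kept and a median of 332 to 606 counts per kept cell. Haemoglobin made up 13.4% to 22.3% of the counts in the replicate 1 libraries and 0.32% to 0.524% in the replicate 2 libraries. The extraction text of replicate 2 describes pancreatic islets, against the spleen label. The 7 of 10 acinar and islet markers that the tables list summed to at most 40.0 counts per 1000000 counts of the cells summed (CPM) in any library. That maximum was modified 5′ replicate 2, with 84 counts and all 7 markers found, 19 counts lying in its T gate and 47 in its B gate. Every other library, including the other replicate 2 libraries, had at most 13.7 CPM, with 5 or 6 of the 7 markers at 0. The source of these counts was not tested. The B cell markers summed to 3445 to 6869 CPM and the T cell markers to 2038 to 4005 CPM. The labels do not say that the replicates came from separate mice, so the spread behind all p-values here lies between libraries and may be technical. In the fits between cell types that spread was mostly pooled over genes, and a gene's own spread over libraries had little weight. Any pair of libraries shared 0 to 16 barcodes, at most 0.619% of the smaller library.

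T, B and NK cells were gated on raw marker counts in each library: T cells by CD3 and receptor constant chains, B cells by genes such as Cd79a, Cd79b and Ms4a1, and NK cells by killer cell genes such as Ncr1 and Klrb1c. The gates held 288 to 1153 T cells, 355 to 2044 B cells and 14 to 89 NK cells per library. Standard 5′ replicate 1, with 14 NK cells, was left out of the values for NK cells. The 8 genes summed to 707 to 6603 counts per library over all cells.

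All members were found in all 3 lymphocyte types and were close to absent from myeloid cells. In T cells the summed level of the 8 genes ranged from 2426 CPM in modified 5′ replicate 1 to 3567 CPM in 3′ replicate 2. In B cells it ranged from 1824 to 2471 CPM. In NK cells it was 3111 CPM in 3′ replicate 1, 4204 in 3′ replicate 2, 3807 in standard 5′ replicate 2, 2271 in modified 5′ replicate 1 and 3523 in modified 5′ replicate 2. The T cell sum was above the B cell sum in every library, and the B and T ranges overlapped only where the highest B library met the lowest T library. In the 413 myeloid cells, gated on genes such as Lyz2 and Csf1r, 18 counts of the 8 genes were found among 345242, which is 52.1 CPM (exact 95% Poisson interval 30.9 to 82.4). Of those 18 counts, 7 were of Gimap1 and 4 of Gimap9. Gimap7 had 0 counts there, with an exact 95% Poisson upper limit of 10.7 CPM. In 102 cells dominated by haemoglobin, 1 GIMAP count was found among 159998. Intervals and limits of this kind cover counting error only.

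Most lymphocytes carried at least 1 GIMAP count. The share of cells with a count of any member ranged over libraries from 56.6% to 83.2% of T cells, from 52.7% to 74.6% of B cells and from 68.3% to 87.6% of NK cells. In myeloid cells it was 0% to 4.63%, at median depths of 481 to 992 counts per cell against 302 to 709 in T cells and 346 to 559 in B cells. The myeloid gate required 0 counts of the T, B and NK markers, which can leave out cells holding free lymphocyte RNA. The myeloid share is therefore no measure of free RNA. After each cell was thinned to 300 counts, the shares were 52.3% to 63.6% of T cells, 41.7% to 53.2% of B cells, 51.4% to 75.3% of NK cells and 0% to 3.13% of myeloid cells. The shallower cells, 245 of 4550 T cells, 445 of 8345 B cells, 16 of 326 NK cells and 25 of 413 myeloid cells, were left out of the thinned values. Standard 5′ replicate 1 lost the largest part, 137 of 288 T cells and 113 of 355 B cells, and gave the lowest thinned B cell share. Single genes were seen in fewer cells. Gimap3 did not overlap between T and B cells after thinning, with 16.5% to 18.5% of T cells and 3.31% to 6.97% of B cells. Gimap6 overlapped, with 16.0% to 23.2% of T cells and 15.9% to 28.2% of B cells.

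**Figure D1:**
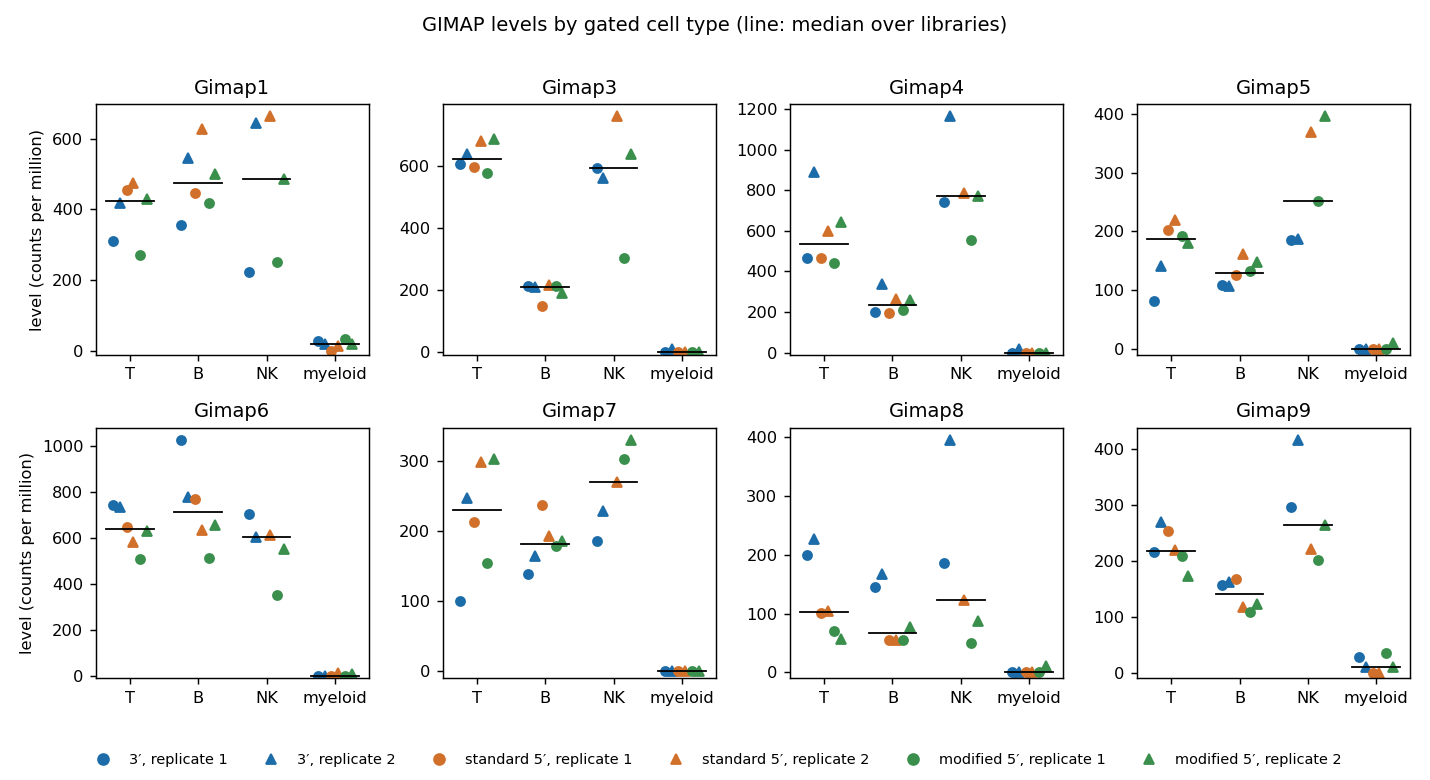
Level of each GIMAP gene in CPM (vertical axis) in T, B, NK and myeloid gates (horizontal axis), with 1 point per library and a line at the median. Gimap3, Gimap4 and Gimap9 sit higher in T and NK cells than in B cells, Gimap1 and Gimap6 do not, and all 8 are at or near 0 in myeloid cells.

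The members differed in level among themselves, and their order differed between cell types. Levels of different genes are set side by side here per kilobase of transcript, as medians of CPM per kb over libraries. Counts of transcripts that were tagged at 1 end and not fragmented need not grow with length, so the order by CPM alone is given beside it. In T cells Gimap6 came first with 400.4 CPM per kb, followed by Gimap4 with 296, Gimap3 with 290 and Gimap1 with 284. Then came Gimap7 with 181, Gimap9 with 158, Gimap5 with 95.4 and Gimap8 with 32.9. The ranges over libraries of Gimap4 (245 to 495), Gimap3 (270 to 321) and Gimap1 (181 to 318) overlapped, and differences between these neighbours within libraries were not tested. Gimap6 was the highest member in 5 of 6 T cell libraries and Gimap4 in the other. In B cells Gimap6 led with 447 CPM per kb and Gimap1 followed with 317, and these 2 genes were the top pair in 6 of 6 libraries. The other B cell medians were 143 for Gimap7, 130 for Gimap4, 101 for Gimap9, 97.5 for Gimap3, 66.0 for Gimap5 and 21.3 for Gimap8. In NK cells Gimap4 led with 427 CPM per kb, ahead of Gimap6 with 379 and Gimap1 with 324, and it was among the top 2 genes in 5 of 5 libraries. Gimap3 (276), Gimap7 (213), Gimap9 (191) and Gimap5 (129) followed, and Gimap8 was again lowest at 39.1. Gimap8 was the lowest member in 4 of 6 T cell, 6 of 6 B cell and 4 of 5 NK cell libraries, and Gimap5 was the lowest in the rest.

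By CPM without length, the first and the last member in T, B and NK cells were the same, and places between them changed. In T cells the order was then Gimap6, Gimap3, Gimap4, Gimap1, Gimap7, Gimap9, Gimap5 and Gimap8. In B cells Gimap6 (713 CPM) and Gimap1 (474) were followed by Gimap4 (235), Gimap3 (209), Gimap7 (182), Gimap9 (140), Gimap5 (129) and Gimap8 (66.9), so that Gimap3 moved up from place 6 to place 4 and Gimap7 down from place 3 to place 5. In NK cells Gimap3 (593 CPM) came before Gimap1 (484). The places of Gimap3 and Gimap7 in B cells therefore depend on the scale.

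As a share of the GIMAP counts, which does not depend on how libraries are scaled, the mix in B cells was set apart from that in T and NK cells. Gimap1 and Gimap6 together made up 50.9% to 58.9% of GIMAP counts in B cells (median 54.8%), 32.1% to 38.7% in T cells (median 33.7%) and 26.7% to 33.5% in NK cells (median 29.7%). Gimap3 and Gimap4 together made up 16.0% to 23.1% in B cells (median 21.1%), 36.2% to 42.9% in T cells (median 41.2%) and 37.8% to 42.9% in NK cells (median 40.6%). For both pairs no B cell library overlapped any T or NK cell library. These pairs were formed after their values were seen, so the shares are a description.

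**Figure D2:**
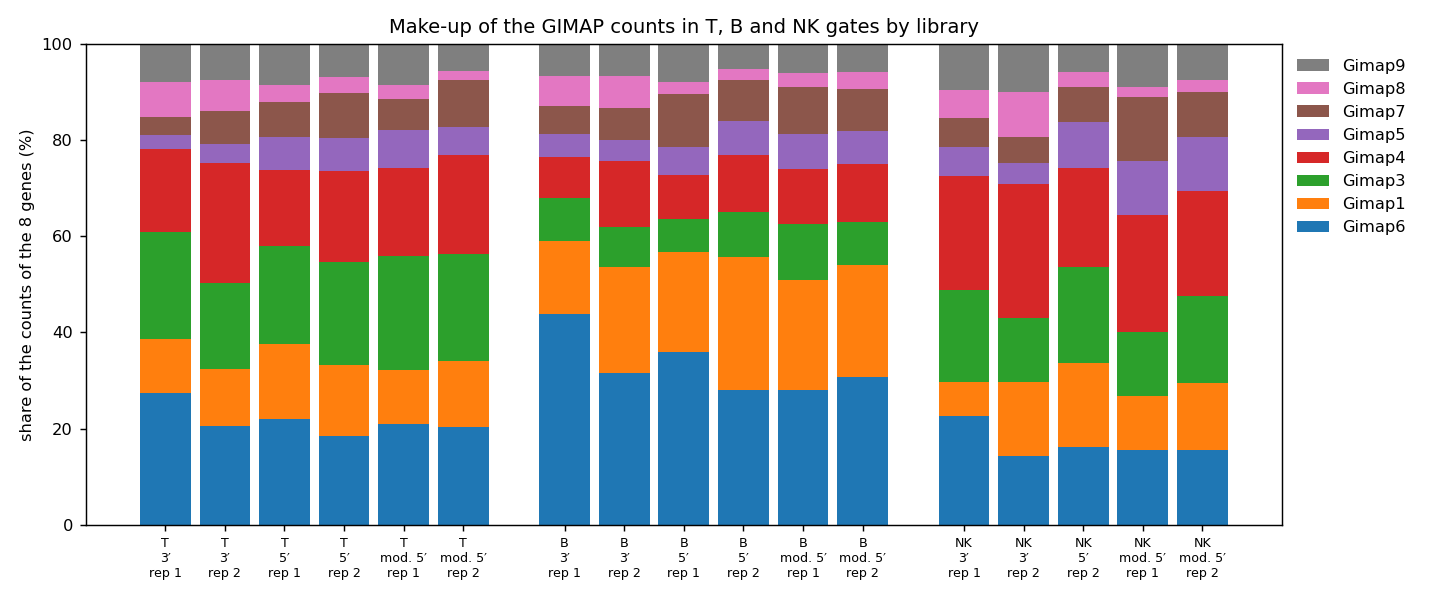
Share of the counts of the 8 GIMAP genes taken by each member (vertical axis, percent, stacked to 100) in the T, B and NK gates of each library (horizontal axis). The blue and orange bars of Gimap6 and Gimap1 reach 50.9% to 58.9% in B cells and stay at or under 38.7% in T and NK cells.

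In T against B cells, 8 of 8 members passed the test, 6 higher and 2 lower in T cells, where 41.4% of the 7433 genes tested passed (19.7% higher and 21.7% lower). The median over the members was 0.31 on the log2 scale, against -0.03 for all genes tested. Gimap3, the closest relative of Gimap5, had 579 to 688 CPM in T cells (median 622) and 147 to 216 CPM in B cells (median 209). All T cell libraries were above all B cell libraries, and the log2 difference was 1.57 ± 0.07 (SE, adjusted p = 1.57e-30). Gimap4, which is known for a role in the death of T cells, had 442 to 893 CPM in T cells (median 535) and 196 to 340 CPM in B cells (median 235). Its groups did not overlap either, with a log2 difference of 1.17 ± 0.07 (adjusted p = 3.77e-24). Gimap9 had 173 to 269 CPM in T cells and 109 to 168 CPM in B cells, again without overlap, and its log2 difference was 0.61 ± 0.09 (adjusted p = 1.34e-08). How many of all genes had no overlap, here and in the later comparisons, was not counted.

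Gimap1 and Gimap6 were lower in T cells than in B cells. Gimap1 had 271 to 474 CPM in T cells (median 423) and 356 to 627 CPM in B cells (median 474). It was lower in T cells within 5 of 6 libraries, with a log2 difference of -0.41 ± 0.07 (adjusted p = 8.54e-07). Gimap6 had 509 to 745 CPM in T cells (median 638) and 512 to 1026 CPM in B cells (median 713). It was lower in T cells within 6 of 6 libraries, by a median of 0.10 and at most 0.46 on the log2 scale of CPM + 1, and the fitted difference was -0.24 ± 0.06 (adjusted p = 0.00137). The groups of both genes overlapped. For Gimap6 DESeq2 gave an adjusted p of 0.0661, and without 3′ replicate 1, which had the highest B cell level, edgeR gave -0.15 and the call ended.

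Gimap5, Gimap7 and Gimap8 were higher in T cells by smaller amounts, and their groups overlapped. Gimap5 had 81.3 to 220.0 CPM in T cells and 106 to 161 CPM in B cells, with a log2 difference of 0.24 ± 0.10 (adjusted p = 0.0439). It was higher in T cells in 5 of 6 libraries and lower in 3′ replicate 1. Gimap7 had 101 to 302 CPM in T cells and 138 to 238 CPM in B cells, and was higher in T cells in only 3 of 6 libraries (0.29 ± 0.10, adjusted p = 0.00908). Gimap8 had 57.6 to 227 CPM in T cells and 54.3 to 168 CPM in B cells and was higher in T cells in 5 of 6 libraries (0.32 ± 0.12, adjusted p = 0.0203). The calls of these 3 genes ended under DESeq2, with adjusted p of 0.264, 0.62 and 0.245, and also without 3′ replicate 2 and without standard 5′ replicate 2. Without modified 5′ replicate 1 the call of Gimap5 ended, and without modified 5′ replicate 2 those of Gimap5 and Gimap7. Of the closest pair by coding sequence, Gimap3 in T cells was at 3.11 times its B cell CPM in the median library and Gimap5 at 1.35 times. The 95% intervals of their log2 differences were 1.43 to 1.71 and 0.04 to 0.43. The difference between the 2 genes was not tested. GIMAP genes are also known from endothelium, and the endothelial list, of which 5 of 6 genes are in the tables, summed to 64.0 to 165 CPM in T cells and 89.1 to 254 CPM in B cells. Of these 5 genes, 2 to 4 were at 0 in each sum, Kdr among them in all. Markers of NK cells summed to 132 to 520 CPM in the T gate.

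**Figure D3:**
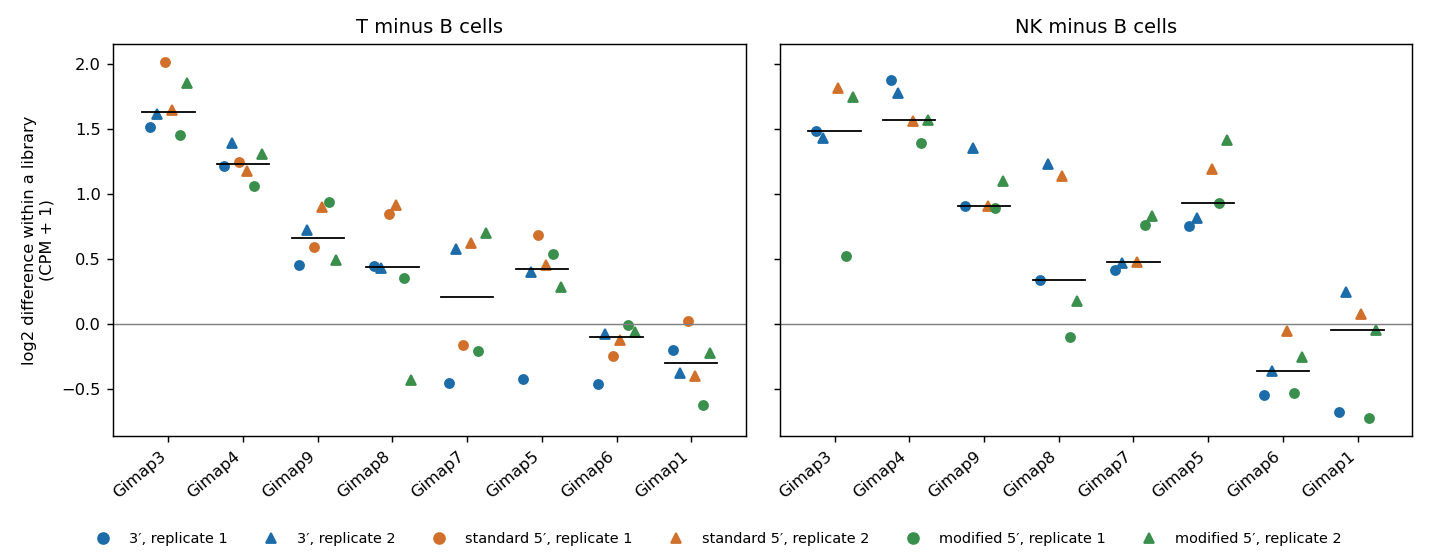
Difference within each library between T and B cells (left) and between NK and B cells (right), as log2 of CPM + 1 (vertical axis), for each GIMAP gene (horizontal axis), with 1 point per library and a line at the median. Gimap3, Gimap4 and Gimap9 lie above 0 in every library of both panels, and Gimap6 lies below 0 in every library of both.

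NK cells had more Gimap3, Gimap4, Gimap5 and Gimap9 than B cells. Against B cells, 6 of 8 members passed, 4 higher and 2 lower, where 21.6% of the 8374 genes tested passed (6.69% higher and 14.9% lower). NK sums were small, with 45 to 202 GIMAP counts in each of the 5 libraries used. Gimap4 had 741 CPM in NK cells of 3′ replicate 1, 1166 in 3′ replicate 2, 786 in standard 5′ replicate 2, 555 in modified 5′ replicate 1 and 771 in modified 5′ replicate 2. All were above the B cell maximum of 340 CPM, with a log2 difference of 1.22 ± 0.15 (adjusted p = 9.62e-15). Gimap3 had 593, 562, 761, 303 and 639 CPM in the same order of libraries, with modified 5′ replicate 1 the lowest and all above B cells. Its log2 difference was 1.09 ± 0.17 (adjusted p = 4.31e-09). Gimap5, whose loss depletes NK as well as T cells, had 185, 187, 368, 252 and 396 CPM (0.66 ± 0.23, adjusted p = 0.0246). All were above the B cell maximum of 161, but they rest on 5, 9, 15, 5 and 18 counts. Gimap9 had 296, 416, 221, 202 and 264 CPM, from 8, 20, 9, 4 and 12 counts (0.67 ± 0.23, adjusted p = 0.0195). These too were all above the B cell maximum, 168 CPM. For Gimap5 and Gimap9 the lack of overlap with B cells thus rests on few counts.

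The scaling of the libraries bears on the rest of the NK comparison. The TMM factors lowered NK values by 0.48 against B cells and by 0.43 against T cells on the log2 scale, and the median over all genes tested was -0.37 and -0.34. Gimap6 in NK cells had 704, 604, 614, 353 and 550 CPM, lower than in B cells of the same library in 5 of 5 cases, with a fitted difference of -0.76 ± 0.15 (adjusted p = 3.85e-06). Gimap1 had 222, 645, 663, 252 and 484 CPM, lower than in B cells in 3 of 5 libraries (-0.47 ± 0.16, adjusted p = 0.0213). Relative to the median of all genes these differences were -0.39 and -0.10. With library totals as the only scaling they were -0.32 (adjusted p = 0.118) and -0.04 (adjusted p = 0.96), so both calls ended, while Gimap8 passed at 0.84 (adjusted p = 0.0245). The rises of Gimap3, Gimap4, Gimap5 and Gimap9 were then 1.53, 1.65, 1.11 and 1.11. Of all genes called between NK and B cells, 560 of 1808 were higher in NK cells with TMM and 899 of 1518 (59.2%) with library totals. Gimap7 (0.14 ± 0.23) and Gimap8 (0.43 ± 0.28) did not pass with TMM factors. By CPM Gimap7 was higher in NK than in B cells in 5 of 5 libraries, by 1.34 to 1.78 times, and Gimap8 in 4 of 5. With library totals Gimap7 rose by 0.58 and did not pass either (adjusted p = 0.0699). Without modified 5′ replicate 2, 3 members passed instead of 6, the calls of Gimap1, Gimap5 and Gimap9 being lost. The call of Gimap1 also ended without 3′ replicate 1, standard 5′ replicate 2 or modified 5′ replicate 1, that of Gimap5 without standard 5′ replicate 2 and that of Gimap9 without 3′ replicate 2.

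Between NK and T cells, 2 of 8 members passed, where 14.1% of genes tested passed. These were Gimap3 (-0.49 ± 0.15, adjusted p = 0.0123) and Gimap6 (-0.55 ± 0.15, adjusted p = 0.00408), both lower in NK cells, each in 4 of 5 libraries with overlapping CPM. With the size factors of DESeq2, under DESeq2 itself (adjusted p = 0.328 and 0.2) and with library totals only, neither passed (-0.10 and -0.16 with totals, adjusted p = 0.793 and 0.614). Gimap4 and Gimap5, higher in NK cells in 5 of 5 libraries by CPM, passed instead with library totals (0.40, adjusted p = 0.0317, and 0.81, adjusted p = 0.00847). Of all genes called, 28.5% were higher in NK cells with TMM and 57.8% with library totals. Markers of the myeloid list, which holds Fcer1g, summed to 3476 to 4947 CPM in the NK gate and 81.3 to 189 CPM in T cells, the T cell markers left by the gate to 437 to 606 CPM in the NK cells used, and the B cell markers were at 0 in both by the gate. The part of such cells in these differences was not tested.

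Among T cells, Gimap1 and Gimap6 were lower in cells with a Cd8a or Cd8b1 count than in cells with a Cd4 count. Of 7 members tested 2 passed, where 8.27% of 1257 genes tested passed, and Gimap8 was under the count filter. The members that did not pass were Gimap7 (-0.54 ± 0.25), Gimap4 (-0.45 ± 0.18), Gimap3 (-0.34 ± 0.17), Gimap9 (-0.33 ± 0.25) and Gimap5 (0.10 ± 0.30). All of these but Gimap5 were thus also lower in CD8 cells. Pooled over libraries, the 8 genes had 2589 CPM in 1573 CD8 cells and 3476 CPM in 287 CD4 cells, of 4550 T cells. The CD4 cells numbered 45 to 63 in the 5 libraries used and carried 65 to 170 GIMAP counts. Gimap1 had 273, 622, 689, 317 and 542 CPM in CD4 cells of 3′ replicates 1 and 2, standard 5′ replicate 2 and modified 5′ replicates 1 and 2. In CD8 cells it had 262, 291, 332, 253 and 387 CPM, lower in each library (-0.70 ± 0.20, adjusted p = 0.00906). Gimap6 had 1215, 829, 638, 634 and 660 CPM in CD4 cells and 549.8, 583, 452, 370.4 and 533 in CD8 cells, without overlap (-0.62 ± 0.17, adjusted p = 0.00471). DESeq2 called neither gene (adjusted p = 0.189 and 0.0642). The call of Gimap1 ended without 3′ replicate 2 or without standard 5′ replicate 2, and that of Gimap6 without 3′ replicate 1. Of all genes called, 58.7% were higher in CD8 cells with TMM and 44% with library totals, under which both GIMAP calls held (adjusted p = 0.00453 and 0.00181).

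With the 5′ kit Gimap8 was lower and Gimap5 higher than with the 3′ kit, and no member passed the test between the modified and the standard 5′ protocol. Over all cells Gimap8 had 140 and 179 CPM in the 3′ libraries (replicates 1 and 2), 51.9 and 68.1 in the standard 5′ libraries and 51.7 and 65.7 in the modified 5′ libraries. Both 5′ groups were below both 3′ libraries. Its log2 difference was -0.98 ± 0.23 for standard 5′ against 3′ (adjusted p = 0.0167) and -1.08 ± 0.22 for modified 5′ against 3′ (adjusted p = 0.012). Gimap5 had 85.9 and 109 CPM in the 3′ libraries, 148 and 175 in the standard 5′ libraries and 139 and 153 in the modified 5′ libraries, with both 5′ groups above the 3′ libraries. Its log2 differences were 1.12 ± 0.21 (adjusted p = 0.00768) and 0.93 ± 0.21 (adjusted p = 0.0165). The 2 comparisons share the 3′ libraries, so their likeness is no separate evidence. In each, 2 of 8 members passed, where 23.3% of 11546 genes passed for standard 5′ and 18.4% for modified 5′ against 3′, so the number of members called was close to that of genes in general.

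With the replicate number as a term (the replicate block), Gimap1 (0.64, adjusted p = 0.0106) and Gimap7 (0.75, adjusted p = 0.00451) also passed for standard 5′ against 3′, giving 4 members, and Gimap7 (0.70, adjusted p = 0.00593) for modified 5′ against 3′, giving 3. Calls over all genes rose as well under this block, to 4127 and 3820 of the 11546 tested. TMM raised 5′ values against 3′ by 0.39 (standard) and 0.36 (modified) on the log2 scale. With library totals only, Gimap8 fell by 1.37 and 1.44 and Gimap5 rose by 0.73 (adjusted p = 0.0371) for standard 5′, while its value of 0.57 for modified 5′ did not pass (adjusted p = 0.0829). Of all genes called, 53.7% and 55.5% were higher in the 5′ libraries with TMM, and 17.4% and 17.9% with library totals. Without standard 5′ replicate 1 only Gimap5 passed, and without standard 5′ replicate 2 no member did. Without 3′ replicate 2, Gimap8 did not pass for standard 5′ against 3′. For modified 5′ against 3′ no member passed without either modified 5′ library, and without 3′ replicate 1 Gimap5 did not.

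Within T cells Gimap8, Gimap5 and Gimap7 passed, 3 of 8 members, where 23% of 7800 genes passed. Gimap8 in T cells had 199 and 227 CPM in the 3′ libraries, 101 and 105 in the standard 5′ libraries and 69.8 and 57.6 in the modified 5′ libraries (-0.79 ± 0.28 for standard 5′ against 3′, adjusted p = 0.0385). Gimap5 had 81.3 and 140.3 CPM, then 202 and 220.0, then 192 and 181 (1.17 ± 0.27, adjusted p = 0.00253). Gimap7, whose product can pair with another GIMAP protein and speed its GTP hydrolysis, had 101 and 247 CPM, then 213 and 299, then 154 and 302. Its 3′ and 5′ libraries overlapped (0.85 ± 0.31, adjusted p = 0.0445), and its call ended with library totals (0.58, adjusted p = 0.18), under DESeq2 (adjusted p = 0.47) and at either other gate threshold. DESeq2 kept the call of Gimap5 only. Gimap8 did not pass without any 1 of the 3′ or standard 5′ libraries compared, and no member passed without 3′ replicate 1 or without standard 5′ replicate 2.

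Within B cells Gimap8, Gimap5 and Gimap7 passed as well, 3 of 8 members where 31.2% of 9284 genes passed. Gimap8 had 146 and 168 CPM in the 3′ libraries, 55.9 and 55.2 in the standard 5′ libraries and 54.3 and 77.9 in the modified 5′ libraries (-1.21 ± 0.28, adjusted p = 0.000512). This was 0.328 to 0.383 of the 3′ level within a replicate, and in T cells 0.463 to 0.508. Gimap5 had 109 and 106 CPM in the 3′ libraries, 126 and 161 in the standard 5′ libraries and 132 and 148 in the modified 5′ libraries (0.78 ± 0.25, adjusted p = 0.0118). Gimap7 had 138 and 165 CPM, then 238 and 194, then 178 and 186 (0.75 ± 0.25, adjusted p = 0.017). With library totals only Gimap8 passed, and Gimap5 (0.46, adjusted p = 0.131) and Gimap7 (0.44, adjusted p = 0.162) did not. Under DESeq2 Gimap5 did not pass (adjusted p = 0.0729). Without 3′ replicate 1 Gimap7 did not pass, and without standard 5′ replicate 2 no member did. Of all genes called, 51.0% were higher in 5′ libraries in T cells and 44.5% in B cells with TMM, and 25.2% and 20.3% with library totals.

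**Figure D4:**
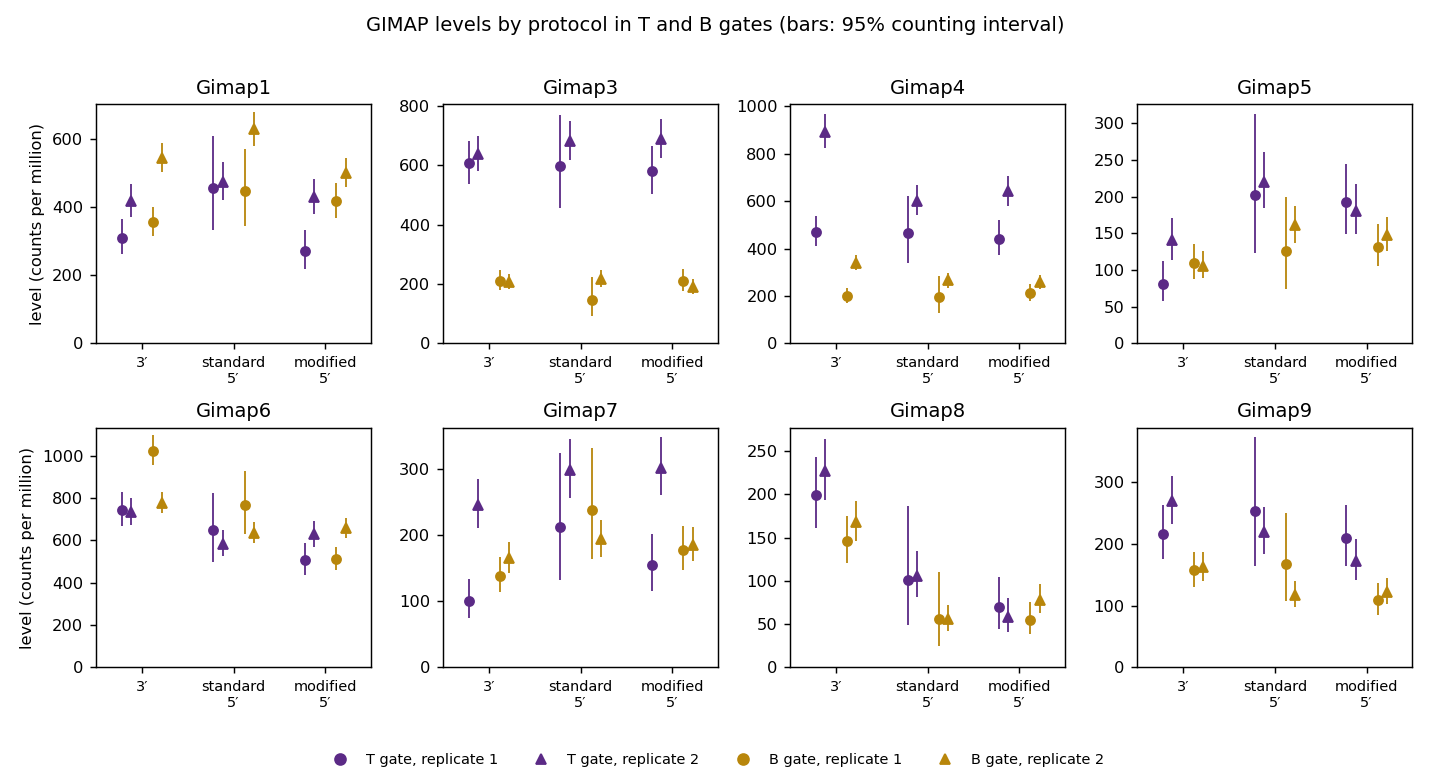
Level of each GIMAP gene in CPM (vertical axis) by protocol (horizontal axis) in T and B cells, with 1 point per library and the exact 95% counting interval as a bar. Gimap8 is lower in both 5′ protocols than in the 3′ libraries of both cell types, and Gimap3 keeps T cells above B cells in every protocol.

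The modified 5′ protocol against the standard 5′ protocol gave 0 of 8 members over all cells, where edgeR called 0 genes (0% of 11546), with 459 at an unadjusted p under 0.05 and 1 called by DESeq2. In T cells 0 of 8 passed, where 0.0256% of genes did, and in B cells 0 of 8, where 0.194% did. Over all cells the 95% interval of the difference was -0.65 to 0.29 for Gimap5 and -0.63 to 0.43 for Gimap8, on the log2 scale. The widest were those of Gimap4, from -0.69 to 0.72, and smaller changes of that gene were not detectable. Whether the kit difference was unequal in T and B cells was tested as an interaction, and 0 of 8 members passed for standard 5′ against 3′ (0.15% of 9313 genes did) or for modified against standard 5′ (0.0107% did). The largest member value in the latter was that of Gimap8, -1.04 ± 0.36 (adjusted p = 1).

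Members that rose and fell together across the T, B and NK sums were Gimap3 and Gimap4 (Pearson r = 0.86 over 17 sums), Gimap4 and Gimap9 (0.86) and Gimap5 and Gimap7 (0.76). Gimap5 and Gimap6 went opposite ways (-0.58). The sums share libraries and depth, so these values describe the data and carry no test. Among 3572 genes with a mean of at least 50 CPM, the 10 most like the summed GIMAP level were Epsti1 (r = 0.92), Sept6 (0.87), H2-Q7 (0.87), Sema4a (0.86), Arl6ip5 (0.85), Adamts10 (0.85), Otulinl (0.84), Iqgap2 (0.84), Pdcd6 (0.84) and Gbp8 (0.84). Epsti1 had 273 to 459 CPM in T cells, 88.4 to 133 in B cells and 202 to 595 in NK cells. H2-Q7, a class Ib histocompatibility gene, had 968 to 1431, 350.5 to 725 and 1222 to 1894 CPM in the same order.

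Lists of genes from immune GTPase, survival and autophagy pathways were read in the same T against B fit. Of 15 interferon-inducible GTPases, a separate family of immune GTPases, 14 were tested, 12 were higher in T cells and 1 was lower, with a median of 1.78 against -0.03 for all genes. Over all genes tested, 19.7% were higher and 21.7% lower in T cells. The largest differences were Tgtp1 (4.91 ± 0.23, adjusted p = 8.48e-30) and Iigp1 (3.87 ± 0.38, adjusted p = 6.68e-14), and Gbp3 was the gene that was lower (-1.31 ± 0.23, adjusted p = 2.09e-06). Gbp8, Gbp6, Tgtp2, Gbp7, Igtp, Gbp2, Gbp4, Irgm2, Gbp9 and Gvin1 were also higher, from 3.59 for Gbp8 down to 0.23 for Gvin1. The call of Gbp9 (0.37, adjusted p = 0.0459) ended in 8 of 14 alternatives and that of Gvin1 in 3 of 14. Tgtp1 and Tgtp2 are near-identical copies whose reads the counting may have split. Of the 15 genes of the BCL-2 family and T cell survival, 12 were tested. Il7r, the receptor chain for interleukin 7 that keeps T cells alive (7.55 ± 0.15), Bcl2, which blocks cell death (0.88 ± 0.09), and Gsk3b (0.51 ± 0.12) were higher, and Mcl1 (-0.62 ± 0.09) and the death-promoting Bid (-1.53 ± 0.20) were lower. The median of that list was 0.19, and 5 of 12 called is close to the 41.4% of all genes called. Of 9 autophagy genes, 7 were tested and Gabarap, an ATG8 protein, was lower in T cells (-0.59 ± 0.07, adjusted p = 2.69e-11), with a list median of 0.00. In NK against B cells the lists had 3 higher and 1 lower of 15 GTPases, 1 and 2 of 13 survival genes, and 0 of 7 autophagy genes. Over all genes tested there, 21.6% passed (6.69% higher and 14.9% lower).

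The genes around the GIMAP cluster had few counts in these cells. Of 32 other annotated genes within 200 kb, 14 had counts and 2 passed the count filter. Gimap1os, an RNA annotated antisense to Gimap1 that overlaps it in part, so that reads in the overlap cannot be told apart without strand, had 30.4 to 87.8 CPM in T cells and 41.9 to 54.1 CPM in B cells (0.24 ± 0.15, adjusted p = 0.203). Tmem176b, a membrane protein gene known from myeloid cells, had 2.14 to 26.3 CPM in T cells, 8.80 to 26.1 CPM in B cells and 219 to 596 CPM in myeloid cells. Its T against B difference was -0.76 ± 0.32 (adjusted p = 0.0486), and that call ended in 9 of 11 alternatives. The GIMAP genes next to it had 0 to 35.2 CPM in myeloid cells.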

How the data were processed

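The authors deposited 1 table of whole-number raw counts (gene symbols by cell barcodes) for each library, not normalized. The build mm10, and Seurat without a version for some samples, are named per the submitters' processing notes. Not given in the sources used here are the aligner, the annotation, and the use of strand and molecular identifiers. The members and gene lists were chosen with earlier results of these data known.

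Cells were kept from 200 genes upward if mitochondrial genes took no more than 20% of counts. T, B, NK and myeloid gates needed 2 or more raw counts of their markers and 0 of the opposing lists. Cells with 2 or more Trbc1 and Trbc2 counts (0 to 15 per library) stayed in the T gate and out of the NK gate, and haemoglobin-dominated cells stayed out of the NK and myeloid gates. Cells positive for both T and B markers (9 to 52 per library) were in no gate, and no doublet caller was run. Counts were summed per library and gate, and sums of under 20 cells entered no test, which left standard 5′ replicate 1 out of the NK and CD4 fits.

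Sums were tested with the quasi-likelihood test of edgeR 4.0.16 (R 4.3.3), with TMM factors, filterByExpr and Benjamini-Hochberg adjustment at 0.05 over all genes tested. Protocol fits held all 6 libraries, and fits between cell types had the library as a block. Differences are log2 fold changes with standard errors taken from the F statistic and 95% intervals from the t distribution on the moderated degrees of freedom, and CPM values are counts scaled to the total of the gate. These degrees of freedom were 65.8 for T against B cells, 66992 for NK cells, 5028 for CD8 against CD4 cells and 27939 for the interactions. The residual ones were 5, 8, 4 and 3, so the p-values there rest mostly on a spread pooled over genes. The fit was tested on simulated counts. The extraction text in the labels is not the same for replicates 1 and 2, and deviations from the protocol means correlated between same-numbered libraries (0.456, 0.391 and 0.241 over 11546 genes), so the replicate number is read as a batch. Library pairs differed by more than sampling noise (chi-square per degree of freedom 3.26 to 40.2). Alternatives were DESeq2 1.42.0 and its size factors, no count filter, all barcodes, the replicate block or no library block, gates at 1 or 3 counts, and each library left out. A scaling by library totals only and an NK gate that keeps Trbc1 and Trbc2 cells were added after seeing the data.

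All members, the genes of the fixed lists that passed between T and B cells, the 10 genes most like the summed level by Pearson r of log2(CPM + 10), and annotated genes within 200 kb are named. Coding sequences, transcript lengths and P-loops came from GENCODE transcripts of GRCm38, with the P-loop found by its Walker A pattern in the translated sequence.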

Additional observations from a re-analysis of the deposited data

How the results depend on the processing

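The number of members called moved by over 1.5 times as follows. For T against B cells, 8 became 4 under DESeq2 and 3 without the library block, and 5 to 8 with 1 library left out. For NK against B cells, 6 became 3 without the library block and 3 to 5 with 1 library left out. For NK against T cells, 2 became 0 with the size factors of DESeq2, under DESeq2 and without the library block. For CD8 against CD4 cells, 2 became 0 under DESeq2, without a count filter and without the library block, and 1 to 2 with 1 library left out. For standard 5′ against 3′ over all cells, 2 became 4 with the replicate block, and 0 to 3 with 1 library left out. For modified 5′ against 3′, 2 became 1 with library totals only, and 0 to 3 with 1 library left out. In T cells, 3 became 1 under DESeq2 and 0 to 3 with 1 library left out, and in B cells 3 became 1 with library totals only and 0 to 4 with 1 library left out. With 1 library left out, a protocol is held by a lone library, assumed to vary like the others. The replicate block changed no call other than those of Gimap1 and Gimap7 given above. Modified against standard 5′ and the interactions gave 0 members in every alternative run. The value of Gimap4 between NK and T cells, 0.03, turned to -0.16 without a count filter and to -0.14 with gates at 1 count, and passed in neither. Gimap3, Gimap4 and Gimap9 between T and B cells, and Gimap3 and Gimap4 between NK and B cells, kept direction and call in all 14 alternatives run. Of 68 member values that no setting called, 46 changed sign in some alternative. Over all genes tested, the counts of calls that moved by over 1.5 times included standard 5′ against 3′ (2689 called, 1562 under DESeq2, 4127 with the replicate block), modified 5′ against 3′ (2124, 1255 and 3820), the same contrast as the first in T cells (1793, and 541 under DESeq2) and in B cells (2893 and 1100), T against B cells (3080, and 1514 without the library block), NK against T cells (1177 and 656) and CD8 against CD4 cells (104, with 46 under DESeq2, 247 without a count filter and 14 without the library block). Modified against standard 5′ gave 0 to 65 calls over all cells, 0 to 42 in T cells and 2 to 45 in B cells, and the interactions gave 0 to 21 and 0 to 6. Without standard 5′ replicate 2, standard 5′ against 3′ fell to 221 calls over all cells, 150 in T cells and 363 in B cells. NK and CD4 values rest on few counts, and keeping Trbc1 and Trbc2 cells in the NK gate left the member calls within these ranges.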

Other observations

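Some members also differed between the replicate numbers. Gimap4 was higher in replicate 2 than in replicate 1 in all 3 protocols, by 1.29 to 1.90 times in T cells and 1.23 to 1.69 times in B cells, without overlap of the CPM values. Gimap7 was higher in replicate 2 by 1.41 to 2.45 times in T cells, also without overlap, whereas in B cells its ratio ran from 0.815 to 1.19. Gimap1 was higher in replicate 2 by 1.20 to 1.53 times in B cells. In T cells Gimap6 and Gimap9 were higher in replicate 2 in only 1 of 3 protocols. The share of all genes that differed in this way between the replicate numbers was not counted, so it is not shown to be particular to these members. Haemoglobin made up 0.327% to 1.45% of the T cell counts in replicate 1 and 0.00384% to 0.0847% in replicate 2. No test was run on this difference, and its link with the preparation cannot be told apart from other differences between the replicates.

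Leaving out cells positive for both T and B markers, 1686 kept cells met no gate. In these the 8 genes had 1763 counts, or 1548 CPM (exact 95% Poisson interval 1477 to 1622), below the gated lymphocytes and above the myeloid cells. Gimap6 was the member with the most counts there, at 426 CPM.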
